A study of Drosophila melanogaster with 4 samples.

Results

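H2A.V is a variant of histone H2A that in Drosophila does the work of both H2A.Z and H2A.X in other animals. It is known from nucleosomes downstream of the start of active genes and from heterochromatin. CTCF is a zinc-finger protein that binds DNA at insulators and at the borders of chromatin domains, in the fly often close to promoters. The broad H2A.V regions described here are the 767 of 3229 listed regions (23.8%) that were wider than 2000 bp. They were chosen by the width of the called region alone, so their width is a description and no finding.

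The chromatin came from unstaged wild-type Drosophila melanogaster embryos, fixed with formaldehyde and sheared, and all libraries share this source. Chromatin immunoprecipitation and sequencing (ChIP-seq) was done with an antibody to CTCF, a custom antibody to H2A.V and an antibody to H3, beside an input, with 1 library each. The lists of called CTCF peaks and H2A.V regions were used. The title of the H2A.V library names H2A.C, not H2A.V, and the library was assigned from its antibody label. Whole embryos of mixed age hold many cell types, so a region that is wide in the list need not be wide in any 1 cell. The CTCF library held 11657333 tags and the H2A.V library 12260001. With no replicate, no value has a spread between embryo collections. The intervals are 95% and cover counting error only, and neighbouring regions are not independent of each other.

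The broad regions had a median width of 2684 bp, with quartiles of 2267 and 3500.5 bp. They covered 2.35 Mb, or 46.2% of the 5.08 Mb under all H2A.V regions. The width limit cut through a continuous range. The narrowest member measured 2002 bp and the widest region left out 2000 bp, and 5 members lay within 10 bp above the limit against 11 regions within 10 bp below it. Among the members, 317 measured up to 2500 bp, 151 were of 2500 to 3000 bp, 176 of 3000 to 4000 bp and 123 wider. A total of 48 exceeded 5000 bp, and 7 exceeded 7000 bp.

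The widest members came from 3L, 3R, 2R and the X. The widest of all spanned 9334 bp on the X from 511825 to 521158 (dm3, as all positions) and held no CTCF peak. The next, 8417 bp on 3L from 18858108 to 18866524, held none either. A region of 7815 bp on 2R from 10051439 to 10059253 held 1 CTCF peak, whose midpoint lay 1273 bp from its right-hand edge. No CTCF peak lay in the 7621 bp region on 3L from 16601887 to 16609507, the 7546 bp region on 2R from 8065221 to 8072766 or the 7519 bp region on 3R from 19752436 to 19759954. On 3L, the 7213 bp region from 21526615 to 21533827 held 1 peak near its centre, 3498 bp from the left-hand edge. The 6985 bp region on 3L from 1329084 to 1336068 held 1 peak, 1241 bp from the right-hand edge. The 6957 bp region on the X from 8036371 to 8043327 was touched by 1 peak, whose midpoint lay 73 bp outside it. The tenth, 6809 bp on 3R from 222858 to 229666, held 2. Thus 5 of the 10 widest regions shared no base with a CTCF peak and 5 shared at least 1 bp. At least 1 bp was shared by 34.8% of all broad regions and 28.0% of all listed regions. The widest region of 2L measured 5900 bp (19581912 to 19587811) and held no CTCF peak, and that of chromosome 4 measured 4594 bp (1047966 to 1052559) and held 1.

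Broad regions occurred on every arm, at unequal density. Per Mb of the span between the first and last listed feature, 3L had 4.94 (exact Poisson interval 4.10 to 5.90), 2L 5.88 (4.93 to 6.97) and 3R 5.99 (5.12 to 6.97). The X had 7.01 (5.96 to 8.20) and 2R 7.62 (6.49 to 8.89). The density on 2R was 1.54-fold that on 3L (exact interval of the ratio 1.21 to 1.97), these being the extremes of the 5 large arms, picked after the values were seen. The X had 1.16-fold the density of the 4 large autosomal arms, with an interval that includes 1 (0.964 to 1.38). Chromosome 4, a very short chromosome packaged much like heterochromatin, had 18 broad regions at 15.3 per Mb (9.09 to 24.3), 2.46-fold that of the large arms together (1.45 to 3.92).

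The share of an arm's H2A.V regions that were broad was less uneven. It was 19.9% on 3L (121 of 607, Wilson interval 16.9 to 23.3%), 22.1% on 3R (167 of 755, 19.3 to 25.2%) and 23.9% on 2L (135 of 564, 20.6 to 27.6%). It was 25.5% on 2R (161 of 632, 22.2 to 29.0%), 26.6% on the X (157 of 590, 23.2 to 30.3%) and 36.0% on chromosome 4 (18 of 50, 24.1 to 49.9%). Over all arms the share was 23.8%, which lies inside the interval of each arm but 3L, below it, and chromosome 4, above it. The remaining 8 broad regions lay among 31 regions on 2LHet, 2RHet, 3LHet, 3RHet, XHet and U, the heterochromatic and unplaced sequences of this assembly.

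**Figure D1:**
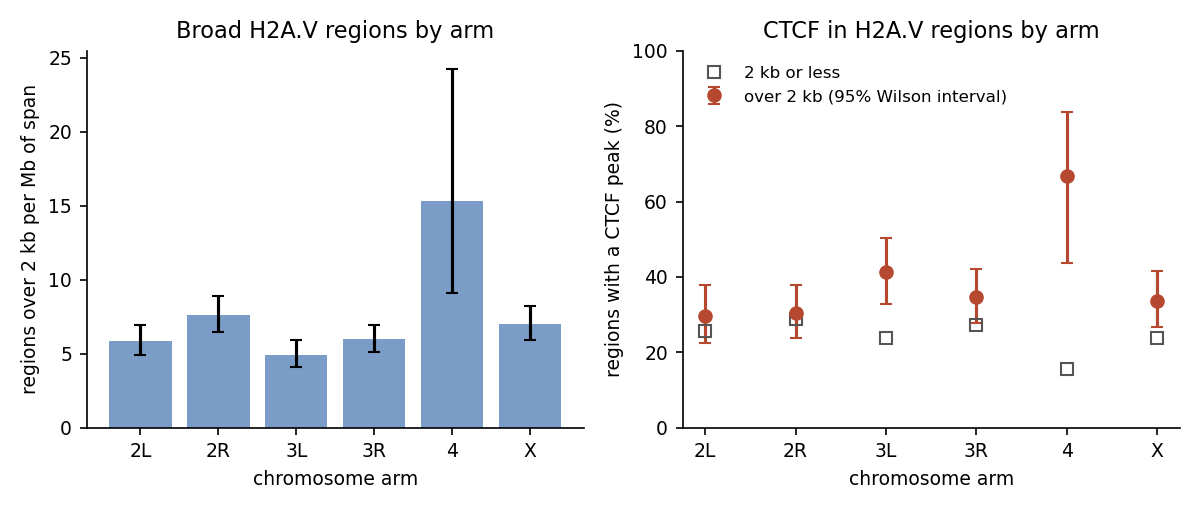
Left, broad H2A.V regions per Mb of listed span on each arm (bars from 0, error bars exact 95% Poisson intervals). Right, the share of regions that shared at least 1 bp with a CTCF peak, for broad regions (filled, 95% Wilson intervals) and narrower ones (open squares); chromosome 4 stands highest in both panels, at 15.3 per Mb and 66.7%.

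The count of broad regions was uneven along the arms. Over 121 bins of 1 Mb on 2L, 2R, 3L, 3R and the X, the median bin held 5 broad regions and 6 bins held none, although each of these 6 held narrower ones. The fullest bin, 10000001 to 11000000 on 2L, held 28 broad regions among 60. The next fullest, both on 2R, held 15 broad regions each, among 38 and 48 regions. What part the density of all listed regions had in these counts was not tested. In the fullest bin 46.7% of regions were broad (34.6 to 59.1%), and their median gap to the nearest other region was 1603.5 bp. The bin also held 20 CTCF peaks, and 4 of its 28 broad regions and 5 of its narrower ones shared bases with one. Over the whole list, 34.8% of broad regions and 25.8% of narrower ones did. Without it, 21.2% of the regions of 2L were broad (107 of 504). The bin was singled out after its count was seen.

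Most broad regions had another H2A.V region close by. Measured between edges, the median gap to the nearest other region was 3172 bp (quartiles 1348 and 7208 bp, smallest 504 bp, largest 303349 bp). A neighbour lay within 2 kb of 280 broad regions (36.5%, Wilson interval 33.2 to 39.97%), within 5 kb of 488 (63.6%, 60.2 to 66.95%) and within 10 kb of 636 (82.9%, 80.1 to 85.4%). The gap of 72 (9.39%) exceeded 20 kb. For the regions of 1300 to 2000 bp, the next narrower class, the median gap was 3318 bp and 61.9% had a neighbour within 5 kb (58.7 to 64.9%). For those of 550 to 1300 bp these values were 4404 bp and 54.6% (51.6 to 57.4%). The narrowest regions, under 550 bp, again lay closer, with 3215 bp and 60.05% (55.2 to 64.7%), so the spacing showed no steady trend with width. The interval of the broad share overlapped those of the 1300 to 2000 bp and the narrowest class and lay above that of the 550 to 1300 bp class. The calling joined windows into regions, with a minimum distance of 1000 bp set per the file headers, while the smallest gap between edges in the list was 504 bp. What part this joining had in the spacing was not tested.

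**Figure D2:**
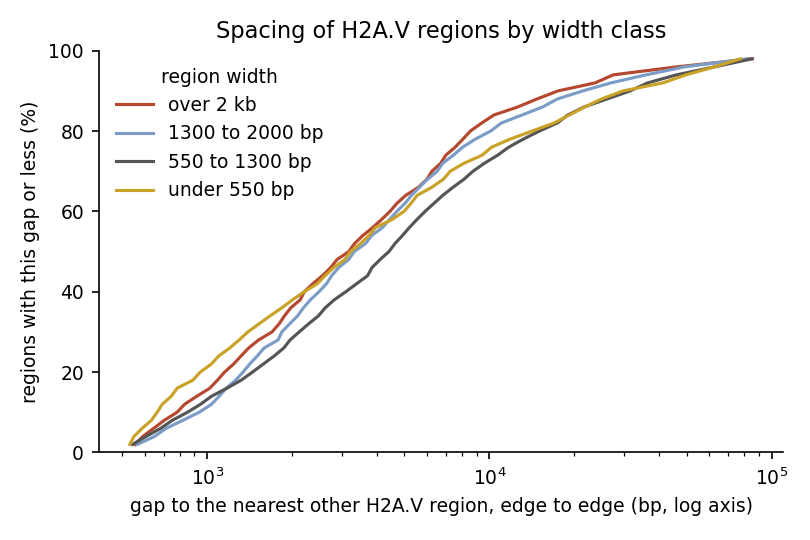
Cumulative share of H2A.V regions (vertical axis, %) with a gap to the nearest other region of at most the value on the horizontal axis (bp, log scale), for 4 width classes. The lines of the broad regions and of the 1300 to 2000 bp regions run close together, with medians of 3172 and 3318 bp, that of the 550 to 1300 bp regions lies to the right at the median, 4404 bp, and that of the regions under 550 bp has a median of 3215 bp.

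The nearest neighbour of a broad region was itself broad in 215 of 767 cases (28.0%, Wilson interval 25.0 to 31.3%), against 24.2% for the regions of at most 2000 bp (596 of 2462, 22.6 to 25.9%). These intervals overlap, but overlap alone does not show that the shares are equal. An interval for the difference between these shares was not computed, so whether they differ was left undecided. From a broad region to the nearest other broad one the median gap was 20270.5 bp. Runs of consecutive broad regions with gaps of at most 5 kb took up 163 of the 767 (21.3%) in 76 runs, of which 67 had 2 members, 7 had 3 and 2 had 4. The longest lay on the X from 17735364 to 17755614, with 4 broad regions covering 15555 of 20251 bp and 1 CTCF peak. The run on 2L from 10421035 to 10436550 had 4 broad regions covering 11034 of 15516 bp and no CTCF peak. The third, on 2R from 4778700 to 4795771, had 3 broad regions and 1 CTCF peak.

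CTCF peaks, each 201 bp wide, come from another library and were not used to choose the regions. Of the 767 broad regions, 267 (34.8%, Wilson interval 31.5 to 38.3%) overlapped a CTCF peak by 1 bp or more, against a background of 28.0% over all 3229 listed regions. The share was 25.8% (24.1 to 27.6%) for the 2462 regions of at most 2000 bp, a difference of 8.98 percentage points (Newcombe interval 5.25 to 12.8). Against the 30.9% of the 1300 to 2000 bp regions, the difference was 3.93 points and its interval included 0 (−0.55 to 8.43). A total of 251 broad regions held 1 CTCF peak, 16 held 2 and 0 held more. Together these were 283 of the 2459 CTCF peaks, or 11.5%, within regions that covered 1.94% of the span of the 6 arms.

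Per covered length, broad regions held fewer CTCF peaks than the narrower ones together, while no difference from the narrowest class was detectable. They contained 273 CTCF midpoints, or 116 per covered Mb (exact Poisson interval 103 to 131). The regions of at most 2000 bp contained 202 per Mb (186 to 220), so that the broad rate was 0.574 of theirs (exact interval of the ratio 0.495 to 0.665). It was 0.625 of the rate in regions of 1300 to 2000 bp (0.527 to 0.741) and 0.475 of that in regions of 550 to 1300 bp (0.399 to 0.566). The 408 regions under 550 bp had 108 midpoints per Mb (67.4 to 163), and the ratio of the broad rate to theirs was 1.08 (0.699 to 1.75). A CTCF peak overlapped 11.5% of these narrowest regions (8.77 to 15.0%). Along the whole span of the 6 arms CTCF peaks numbered 20.2 per Mb.

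Within the broad regions too, the rate per covered length was lower the wider the class, while the shares with a CTCF peak had overlapping intervals. The share was 35.0% at 2000 to 2500 bp (111 of 317, Wilson interval 30.0 to 40.4%), 31.8% at 2500 to 3000 bp (24.9 to 39.6%), 33.5% at 3000 to 4000 bp (27.0 to 40.8%) and 39.8% over 4000 bp (49 of 123, 31.6 to 48.7%). The widest class differed from the narrowest by 4.82 points, with an interval of −5.01 to 15.0. The rate over the same classes was 153, 116, 103 and 87.6 CTCF midpoints per covered Mb. The last was 0.572 of the first (exact interval 0.406 to 0.798).

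**Figure D3:**
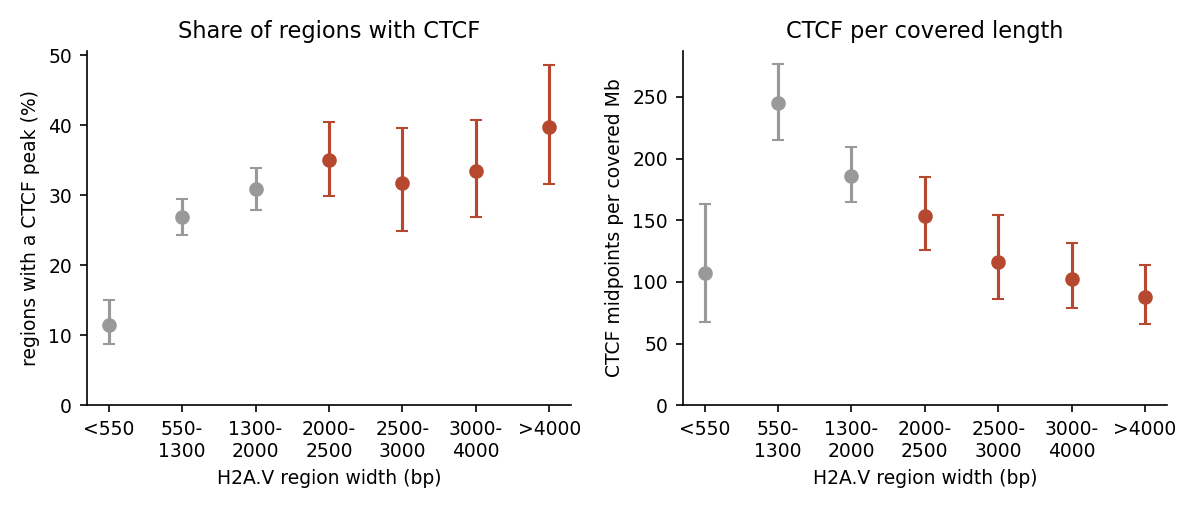
Share of H2A.V regions with a CTCF peak (left, %, 95% Wilson intervals) and CTCF midpoints per covered Mb (right, exact 95% Poisson intervals) by region width in bp, with broad regions in red and narrower ones in grey. From 550 bp upward the share is 26.9, 30.9, 35.0, 31.8, 33.5 and 39.8%, with no steady rise among the broad classes. The rate goes down over the same classes, from 245 to 87.6 per Mb. The regions under 550 bp stand apart, with 11.5% and 108 per Mb.

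CTCF midpoints in broad regions lay mostly in a band at some distance from an edge, as they did in the next narrower class. Of the 273 midpoints, 167 (61.2%) lay 500 to 1000 bp inside the nearer edge, a zone that makes up 32.7% of the covered length. Even placement over that length would have put 89.1 there, so the band held 1.87 times as many (exact Poisson interval over the even count 1.60 to 2.18). The outer 500 bp held 43 midpoints, 0.482 of the even count (0.349 to 0.650), and the parts over 1000 bp from both edges held 63, 0.665 of it (0.511 to 0.851). In rates, the band had 218 midpoints per Mb, 3.88-fold the rate of the outer 500 bp (exact interval 2.76 to 5.56) and 2.82-fold the rate farther in (2.10 to 3.83). The lower count farther in was not seen at 2000 to 2500 bp. There the parts over 1000 bp from both edges held 1.38 of the even count (0.773 to 2.28). The value was 0.545 at 2500 to 3000 bp (0.219 to 1.12), 0.812 at 3000 to 4000 bp (0.503 to 1.24) and 0.598 over 4000 bp (0.365 to 0.924). In the regions of 1300 to 2000 bp, whose centre is no deeper than this band, it held 214 of 279 midpoints (76.7%), 2.00 times the even count (1.74 to 2.28), and the outer 500 bp held 0.378 of it (0.292 to 0.482). In steps of 100 bp the rate over all broad regions was 32.6 per Mb at 400 to 500 bp, 150 at 500 to 600 bp and 280 at 600 to 700 bp, the fullest step. It was 189 at 900 to 1000 bp, 130 at 1000 to 1100 bp, 144 at 1100 to 1200 bp and 61.5 at 1400 to 1500 bp. In regions of 2000 to 3000 bp the fullest step was 700 to 800 bp, with 267 per Mb, and 900 to 1000 bp still had 256. In regions over 3000 bp the rate was 351 at 600 to 700 bp and 83.6 at 900 to 1000 bp.

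Among the broad classes, the median distance of CTCF midpoints from the edge changed little with width. The median distance of a CTCF midpoint from the nearer edge was 778.5 bp at 2000 to 2500 bp, 755 bp at 2500 to 3000 bp, 778 bp at 3000 to 4000 bp and 811 bp over 4000 bp. Even placement would have given 555, 682, 857 and 1275 bp. The median distance to the other edge was 1452.5, 2104, 2605.5 and 4059 bp in the same order. The third quartile of the distance from the nearer edge was 936.5, 903.75, 1101 and 1245 bp. In the regions of 1300 to 2000 bp the median from the nearer edge was lower, 609 bp, where even placement would have given 406 bp. A band at 500 to 1000 bp takes in most of the centre of a region of 2000 to 2500 bp, and in wider ones it lies away from the centre. In regions over 4000 bp, 25 of 55 midpoints (45.5%) lay in the band, which was 19.6% of their length, 2.32 times the even count (1.50 to 3.42). Beyond 1500 bp from both edges, 41.2% of their length, lay 9 midpoints, 0.397 of the even count (0.182 to 0.754). The rate within the band was 243 per Mb at 2000 to 2500 bp and 203 per Mb over 4000 bp, a ratio of 0.837 (0.510 to 1.33). In relative terms, 47 of the 117 midpoints in regions over 3000 bp (40.2%, Wilson interval 31.7 to 49.2%) lay between 0.2 and 0.4 of the way from edge to centre, where even placement would put 20%. Edges come from windows of 500 bp, and what part the window size had in the distance of the band was not tested.

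**Figure D4:**
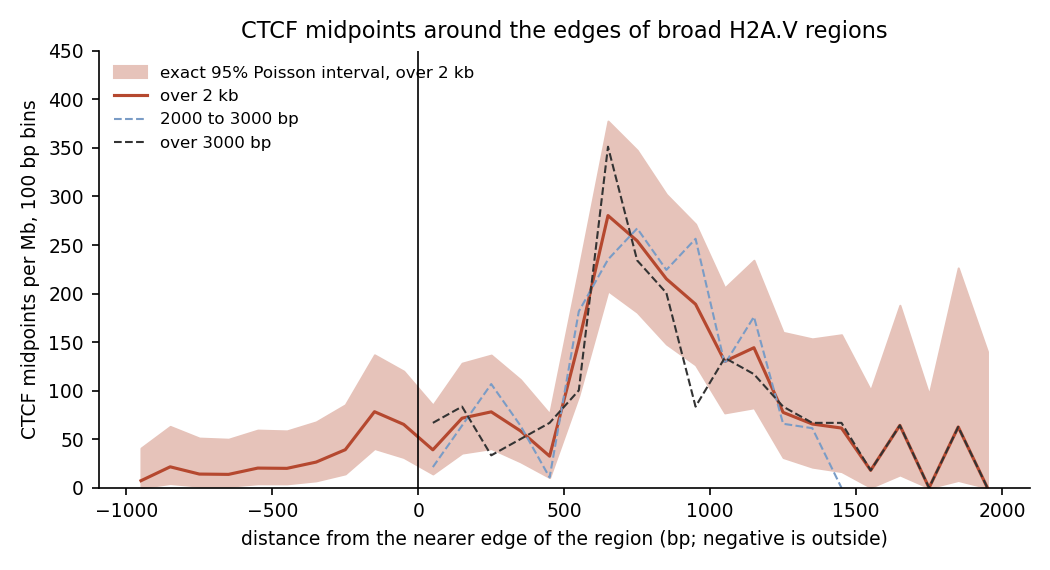
CTCF midpoints per Mb (vertical axis, 100 bp bins) by distance from the nearer edge of a broad H2A.V region in bp, negative outside; the red line is all broad regions with its exact 95% Poisson interval, and the dashed lines are the regions of 2000 to 3000 bp and over 3000 bp. The rate is highest at 600 to 700 bp inside, at 280 per Mb, in all broad regions. Outside, the fullest step is 100 to 200 bp, at 78.4 per Mb (40.5 to 137), an interval that includes the 65.3 of the first 100 bp.

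The place of a CTCF midpoint was also read against the coordinate and against the neighbours. The edge nearer to it was the one of lower coordinate in 129 of 273 cases (47.3%, Wilson interval 41.4 to 53.2%, which includes 50%). It was the edge that faced the farther neighbour in 142 of 242 broad regions with 1 midpoint and a neighbour on both sides (58.7%, 52.4 to 64.7%). Where a neighbour lay within 5 kb on 1 side only, it was the edge away from that neighbour in 66 of 105 (62.9%, 53.3 to 71.5%). For regions of 1300 to 2000 bp the value was 54.4% (147 of 270, 48.5 to 60.3%), with an interval that includes 50% and overlaps that of the broad regions. These counts of sides were added after the lists had been seen.

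Close neighbours went with fewer CTCF peaks. Of the broad regions with a gap of at most 1 kb to the next region, 29 of 121 (24.0%, Wilson interval 17.2 to 32.3%) held a CTCF peak. Of those more than 10 kb from any other region, 62 of 131 did (47.3%, 39.0 to 55.8%), a difference of 23.4 points (Newcombe interval 11.6 to 34.2). Between them the shares were 37.1%, 29.8% and 37.2% at gaps of 1 to 2 kb, 2 to 5 kb and 5 to 10 kb, so the order was not even. Narrower regions differed the same way between the same gaps, 18.2% against 32.9%, by 14.7 points (8.89 to 20.1).

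Few gaps of at most 5 kb between neighbouring H2A.V regions held a CTCF midpoint, but per Mb of gap the rate was not low throughout. None lay in the 20 gaps of at most 1 kb between a pair of broad regions (0%, Wilson interval 0 to 16.1%) or in the 26 such gaps of 1 to 2 kb (0 to 12.9%), and 1 lay in the 41 gaps of 2 to 5 kb. Between a broad and a narrower region, 4 of 84 gaps of at most 1 kb (4.76%, 1.87 to 11.6%), 5 of 140 gaps of 1 to 2 kb (3.57%, 1.53 to 8.09%) and 7 of 222 gaps of 2 to 5 kb (3.15%, 1.54 to 6.36%) held one. Between a pair of narrower regions, 12 of 136, 2 of 185 and 27 of 334 gaps of these lengths did (8.82%, 1.08% and 8.08%). Per Mb of gap, those beside 1 broad region had 65.2 midpoints (exact Poisson interval 17.8 to 167) at up to 1 kb, 24.3 (7.88 to 56.6) at 1 to 2 kb and 9.52 (3.83 to 19.6) at 2 to 5 kb, against the 20.2 per Mb of the whole span. Those between a pair of narrower regions had 124 (64.3 to 217), 7.33 (0.888 to 26.5) and 24.0 (15.8 to 34.9) in the same order. The zeros between broad regions allow up to 263 per Mb at up to 1 kb and 98.8 at 1 to 2 kb, so no difference from the span was detectable there.

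Beside the broad regions the rate of CTCF midpoints was highest right at the edge, although most of those within 5 kb lay farther out. In the first 250 bp outside lay 26 midpoints, or 67.9 per Mb of flank (exact Poisson interval 44.4 to 99.5), leaving out bases under other H2A.V regions. This was close to the 65.2 per Mb of the last 250 bp inside the edge (42.2 to 96.2). The rate was 23.9 per Mb (10.9 to 45.3) at 250 to 500 bp outside, 15.5 (7.75 to 27.8) at 500 to 1000 bp, 15.6 (9.55 to 24.1) at 1 to 2 kb and 14.3 (10.6 to 18.8) at 2 to 5 kb, where 50 midpoints lay. The flanks of the 1300 to 2000 bp regions had 63.0 per Mb in the first 250 bp, and the ratio of the broad rate to theirs was 1.08 (exact interval 0.610 to 1.90). The flanks of the 550 to 1300 bp regions had 235 per Mb there, so that the broad rate was 0.289 of theirs (0.182 to 0.442).

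Counted by region, 260 of the 767 broad regions (33.9%) had a CTCF midpoint inside. For 21 (2.74%) the nearest midpoint lay within 250 bp outside, and for 16 (2.09%) at 250 to 1000 bp. It lay at 1 to 5 kb for 119 (15.5%), at 5 to 20 kb for 218 (28.4%) and farther for 133 (17.3%); the sequence of the last region, 2LHet, had no CTCF peak listed. The median distance from the edge of a region with no midpoint inside to the nearest one was 9579 bp.

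Across the arms, the share of broad regions with a CTCF peak was highest on chromosome 4. It was 29.6% on 2L (40 of 135, Wilson interval 22.6 to 37.8%), 30.4% on 2R (49 of 161, 23.9 to 37.9%), 33.8% on the X (53 of 157, 26.8 to 41.5%), 34.7% on 3R (58 of 167, 27.9 to 42.2%) and 41.3% on 3L (50 of 121, 32.9 to 50.2%). The highest and the lowest of these 5 arms, 3L and 2L, differed by 11.7 points with an interval that just included 0 (−0.01 to 23.1). On chromosome 4 it was 66.7% (12 of 18, 43.7 to 83.7%), 32.9 points above the 5 large arms together (Newcombe interval 9.75 to 50.3). Of the 32 narrower regions on chromosome 4, 5 held a CTCF peak (15.6%). The rate on chromosome 4 was 233 CTCF midpoints per covered Mb (124 to 399), 2.08-fold that in the broad regions of the large arms (1.09 to 3.61). The 13 midpoints on chromosome 4 lay 150 to 2084 bp from the nearer edge, with a median of 813 bp. On the heterochromatic sequences 5 of 8 broad regions held a CTCF peak, namely all 3 on 3LHet, 1 of 2 on 3RHet and the only one on XHet.

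The 16 broad regions with 2 CTCF peaks (2.09% of the 767) compare with 10 of the 2462 narrower regions. The 16 were mostly on chromosome 3, with 9 on 3R and 4 on 3L. These arms had 21.8% and 15.8% of all broad regions, and 558 and 473 of the 2459 CTCF peaks. In 13 of the 16, each edge had a CTCF peak nearer to it than to the other edge. The midpoints were 484 to 5392 bp apart, with a median of 1837.5 bp, and 3 of the 32 lay just outside their region while the peak itself overlapped it. Of the 32, 17 lay 500 to 1000 bp from the nearer edge, and in 5 regions both did. Of the regions over 4000 bp, which have more room, 7 of 123 held 2 peaks (5.69%), against 4 of 317 at 2000 to 2500 bp (1.26%), a difference of 4.43 points (Newcombe interval 0.936 to 10.1).

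In the widest of these, the 6809 bp region on 3R from 222858 to 229666, the midpoints lay 475 bp from the left-hand and 941 bp from the right-hand edge. The 6664 bp region on 2R from 5729682 to 5736345 had them 371 and 1025 bp from its edges, and the 5068 bp region on 3R from 18406266 to 18411333 had them 181 and 886 bp from its own. The most even placement was in the 4892 bp region on 3R from 1193351 to 1198242, with 718 bp on the left and 735 bp on the right. In the 4710 bp region on 3R from 18572450 to 18577159 the distances were 903 and 650 bp. These 5 regions thus had a CTCF peak toward each end, with 3156 to 5392 bp between the midpoints.

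Among the other 5 of the 10 widest, those on 3R and chromosome 4 had both CTCF peaks nearer the same edge. Those on 3L had 1 nearer each edge. In the 5629 bp region on 3R from 25682520 to 25688148 both lay nearer the left-hand edge, at 693 and 2161 bp. The 3462 bp region on 3R from 5083075 to 5086536 had its pair near the centre, 484 bp apart. On chromosome 4, the 3248 bp region from 715676 to 718923 had its pair nearer the right-hand edge, at 1418 and 650 bp. The 4456 bp region on 3L from 14042166 to 14046621 had 1 peak near its centre, 2117 bp from the left-hand edge, and 1 at 355 bp from the right-hand edge. In the 3648 bp region on 3L from 16371076 to 16374723 1 peak lay 607 bp from the left-hand edge, and the midpoint of the other 37 bp beyond the right-hand edge.

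**Figure D5:**
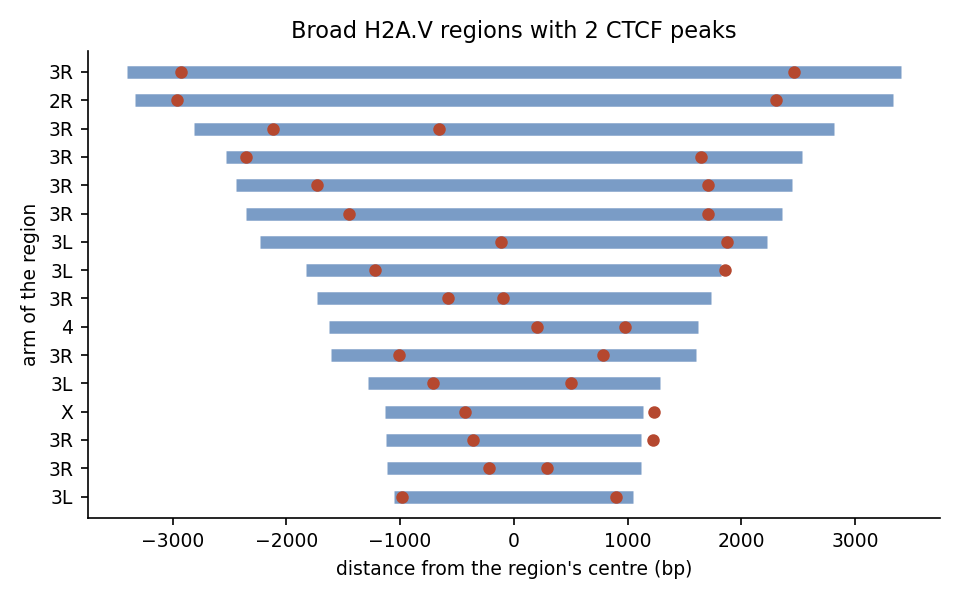
The 16 broad H2A.V regions with 2 CTCF peaks, ordered by width and aligned at their centres (blue bars to scale, horizontal axis in bp from the centre, arm named at the left); red points are CTCF midpoints. In 13 of the 16, each edge has a CTCF peak nearer to it than to the other edge.

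The share of CTCF peaks in broad regions depended on their place in the deposited list, whose order has no recorded meaning. Of the first 1230 CTCF peaks 93 (7.56%) shared bases with a broad region, and of the last 1229 peaks 190 did (15.5%). For the narrower regions these shares were 18.0% and 34.6%, so the ratio of the broad to the narrower rate per covered Mb was alike in both parts of the list, at 0.550 (exact interval 0.421 to 0.714) and 0.587 (0.489 to 0.701). In the H2A.V list, 763 of the 767 broad regions (99.5%) stood in the first 1615 lines. Width and place in that list were therefore closely tied. Narrower regions stood in those lines too, and the last broad region stood on line 1802. What part place in the H2A.V list had in the results was not tested.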

How the data were processed

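Per the submitters' processing notes, the authors used Bowtie 1.1.1, dm3 and HOMER (version not given in the sources used here). Both deposited lists give the start and end of called features in bp, without pooling, per the file headers. H2A.V regions were called in histone style from 500 bp windows joined into regions of varying length, with a minimum distance of 1000 bp, at least 67 tags and a 4-fold excess over the input. CTCF peaks were called in factor style with 37 tags as the minimum and the same excess required against input and against the 10000 bp around each peak. Columns that hold a constant were not used. Neither the input nor the H3 library was analysed here.

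Broad regions were the lines with end minus start over 2000 bp, on all sequence names. Overlap meant at least 1 bp shared; rates, distances and zones used the middle base of each CTCF peak. Spans run from the first to the last feature of either list on an arm. Shares carry Wilson intervals, differences of shares Newcombe intervals, rates exact Poisson intervals and ratios of rates exact conditional binomial intervals. Even placement gives each zone its share of the covered length. With 1 library per antibody no test over samples was possible, and no p-value is given. The members, zones and comparisons were chosen with earlier results of these data known. Named regions are the 10 widest, the 10 widest of those with 2 CTCF peaks, the widest of each arm and the 3 longest runs; others were named after their values were seen. The planned use of gene annotation and of sequence was not run, since no dm3 genome was used here, and no gene is named. The scripts were checked on lists with planted peaks. Python 3.11.15, NumPy 2.4.6, pandas 2.3.3, SciPy 1.17.1 and matplotlib 3.10.9 were used.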

Additional observations from a re-analysis of the deposited data

How the results depend on the processing

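The share of broad regions with a CTCF peak stayed inside its interval under 14 of 16 alternatives, and was 33.6 to 36.0% when each of the 6 arms was left out. With CTCF peaks limited to the first 1230 or the last 1229 of the list it was 11.5% and 23.9%, lower by construction, as were the rates per covered Mb, at 37.0 and 79.2. That rate was 132 for regions over 1500 bp, 100.4 over 2500 bp and 94.99 over 3000 bp. The ratio of the broad to the narrower rate stayed below 1 under all 13 alternatives (0.516 to 0.625). The gap to the nearest region was 5632.5 bp between midpoints, which adds the widths. On the X, 43.4%, 15.3% and 10.2% of regions were over 1500, 2500 and 3000 bp. Added after seeing the data, the excess at 500 to 1000 bp inside was 2.04 times the even count in regions over 3000 bp, 1.69 and 1.96 in the earlier and later part of the CTCF list, and 1.77 to 1.92 with each arm left out. The share of CTCF midpoints nearer the edge that faces the farther neighbour was 56.8 to 60.4% with each arm left out, and its interval then included 50% without 3R (49.7 to 63.6%), as it did in regions over 3000 bp (47.3 to 66.7%) and in the earlier part of the CTCF list (48.0 to 69.6%). No stricter score could be set, since that column is constant. No paired analysis was possible because there is only 1 library for each antibody. Sites under the calling thresholds are not in the lists, so a broad region with no CTCF peak is one where none was listed.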
